A study of Homo sapiens with 8 samples.

Results

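Short human microRNA genes, those whose whole annotated locus spans less than 200 bp, were followed through RNA-seq libraries of clear cell renal cell carcinoma (ccRCC) lines. RefSeq entries were summed per gene symbol, and a gene was kept when its FPKM (fragments per kilobase of transcript per 1000000 mapped reads) averaged at least 1 over the 8 libraries. This kept 188 of 1228 such microRNA genes, or 15.3%, while 987 of the 1228 were listed at 0 in every library. The genes were thus chosen by their measured mean FPKM, and their levels are given as a description with no test. The 188 genes spanned 50 to 149 bp with a median of 82 bp, and they made up 47.7% of the 394 genes of any kind under 200 bp that reached the same average.

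A498 and 786-O are established ccRCC cell lines. In each line, 2 libraries came from cells transfected with non-targeting control siRNA (NTC), 1 library from cells given siRNA1 and 1 from cells given siRNA2, both directed at the long intergenic noncoding RNA SLINKY, all at 50 nM. The siRNA libraries of a line served as the 2 samples of the knockdown, which are different reagents, and nothing states that the NTC libraries were separate cultures, so p-values measure only the spread between these libraries. SLINKY itself was at 14.6 and 16.1 FPKM in the A498 NTC libraries against 1.64 and 3.01 with siRNA1 and siRNA2, and at 1.45 and 1.39 FPKM in the 786-O NTC libraries against 0.0569 and 0.594. The kidney marker PAX8 averaged 42.4 FPKM and the leukocyte genes PTPRC and CD3E were listed at 0, while CA9, a surface antigen typical of ccRCC, was at 0.293 to 0.559 FPKM in A498 and at most 0.0229 FPKM in 786-O. The macrophage marker CD68 was at 138 to 151 FPKM in A498 and at 1.70 to 5.20 FPKM in 786-O. Depth estimated from the values ranged from 25100000 mapped reads in the A498 siRNA2 library to 64700000 in the second 786-O NTC library.

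MicroRNAs are transcribed as long primary transcripts, often from introns or exons of other genes. The nuclear enzyme DROSHA with its partner DGCR8 cuts out a hairpin, XPO5 with RAN carries it to the cytoplasm, DICER1 trims it to the mature strand, and an Argonaute protein loads that strand and finds target messages mainly through the seed, bases 2 to 8. The library kit selects polyadenylated RNA, reads were 36 bases long, and the 258 mature sequences that RefSeq gives for 178 of the 188 genes are 16 to 27 bases long with a median of 22. A read assigned to a microRNA gene can therefore come from the primary transcript, the host message or a similar message elsewhere, and these values are not levels of mature microRNA.

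The hairpins of MIR4690, MIR4746 and MIR24-1, 3 of the 18 genes called in a knockdown comparison, are shown because their values are given library by library; capitals mark the mature arms, and the sequences are those of RefSeq on GRCh38.p14.
MIR4690: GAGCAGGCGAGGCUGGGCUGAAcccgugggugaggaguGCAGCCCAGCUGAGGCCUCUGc
MIR4746: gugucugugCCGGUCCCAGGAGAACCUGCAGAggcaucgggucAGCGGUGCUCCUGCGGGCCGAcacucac
MIR24-1: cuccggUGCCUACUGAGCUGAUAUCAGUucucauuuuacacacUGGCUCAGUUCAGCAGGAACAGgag

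Of 244 different seeds among the 178 genes, 12 were shared by at least 2 genes, and these took in 22 genes. The largest such group held 4 let-7 genes, a family known for restraining growth-promoting targets. The mature strands of the groups described below are shown with the seed in capitals. MIR24-1 and MIR24-2 give the same 3p strand from different chromosomes.
let-7a-5p: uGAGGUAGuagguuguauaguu
let-7b-5p: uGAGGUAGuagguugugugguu
let-7d-5p: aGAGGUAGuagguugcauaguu
let-7i-5p: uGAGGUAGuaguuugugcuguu
miR-24-3p: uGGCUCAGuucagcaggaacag
miR-93-5p: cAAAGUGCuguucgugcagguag
miR-106b-5p: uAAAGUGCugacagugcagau
miR-221-3p: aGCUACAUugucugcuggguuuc
miR-222-3p: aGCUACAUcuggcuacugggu
miR-492: aGGACCUGcgggacaagauucuu
miR-622: aCAGUCUGcugagguuggagc

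Few reads lay behind most of these genes. The reads behind a value were estimated by dividing its FPKM by the FPKM of 1 read at that span and depth. At a 60-bp locus, 1 read was worth 55.0 FPKM in the deepest library and 141.7 FPKM in the shallowest, against 4.51 and 11.6 FPKM at 110 bp. Thus a gene of 60 bp with a single read in 1 of 8 libraries already passed the average of 1 FPKM. Among 654 member values above 0.001 FPKM, 67.9% were whole read numbers within a tolerance of 0.02 of a read, and 219 were 1 read within that tolerance. The other values were not whole within that tolerance, as can happen where reads are shared between overlapping transcripts, and the cause was not tested.

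Summed over the 8 libraries, the median gene had 2.79 reads. Of the 188 genes, 92 (48.9%) had at most 2 reads, 136 (72.3%) had at most 8, and 15 had at least 100. The 188 genes held 18771 reads together, of which MIR1244-1 alone held 42.3% and the 10 with the most reads held 90.4%. For 111 genes a single library supplied more than 50% of the summed FPKM, and for 118 the median over the libraries was 0 or close to it. At the edge of the selection, MIR215 (1.03 FPKM) rested on 1 read, MIR296 (1.03 FPKM) on 0.3 of a read and MIR1248 (1.09 FPKM) on 1.32 reads, while MIR4515 (0.959 FPKM), MIR4458 (0.920 FPKM) and MIR5010 (0.904 FPKM) lay just outside.

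**Figure D1:**
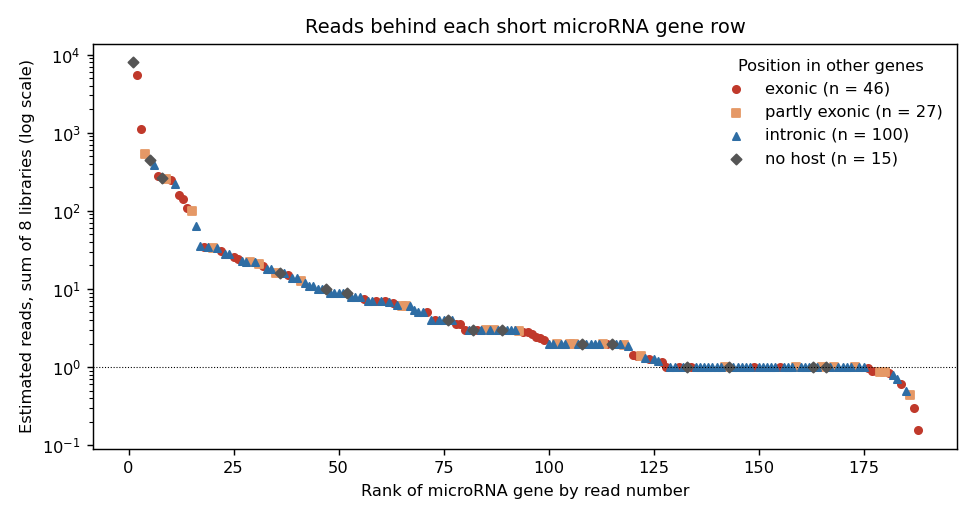
Each of the 188 genes is placed by its rank (x axis) and its estimated reads summed over the 8 libraries (y axis, log scale), with color and symbol giving the position relative to exons of other genes. The 3 genes with the most reads stand at the left, the median lies at 2.79 reads, and a plateau of 65 genes lies at 1 read (dotted line).

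Cufflinks marked 1211 of 1568 values of the loci on the primary chromosomes as OK, 352 as LOWDATA and 5 as FAIL. The mark did not follow the read number: 144 genes were OK in every library with a median of 3 reads, and 39 were LOWDATA in every library with a median of 2.37 reads. MIR671, with 1124 reads, was LOWDATA in all 8 libraries, while MIR215 with 1 read was OK in all 8. Of the 44 genes with any mark other than OK, 30 were fully exonic, out of 46 such genes, and 9 were intronic, out of 100.

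By GENCODE annotation of the same genome build, 100 of the 188 genes lay in introns, 46 fully in exons, 27 partly in exons and 15 in no protein-coding or long noncoding gene. A gene with several loci was placed by 1 of them. The intronic genes, which are most of the set, held 6.63% of the reads with a median of 2 reads per gene. The exonic genes held 41.6% with a median of 2.90 reads and the 15 genes without such a host held 46.3% with a median of 3 reads. Of the 8692 reads of those 15, 7937 belonged to MIR1244-1, which was placed by the 1 of its 3 loci outside introns. Without MIR1244-1, the shares of the reads were 11.5% intronic, 72.0% exonic and 6.97% without a host. For 152 of the microRNA genes a host or other overlapping gene, 142 different ones in all, was found by symbol in the same files. The median host level over the 152 was 13.2 FPKM, and for 129 of them (84.9%) the host reached 1 FPKM, compared with 52.1% of all 21061 genes over 200 bp. Because the microRNA genes were chosen for having reads, that share describes the selection and was not tested.

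MIR1244-1 and MIR1282, the genes with the most reads, had sequence in common with abundant messages. MIR1244-1, summed over 3 identical loci, averaged 21921 FPKM and had 7937 reads over the 8 libraries, ranging from 568 reads in the A498 siRNA2 library to 1507 reads in the second 786-O NTC library. All 47 windows of 36 bases in its locus were found without a mismatch in transcripts of PTMA, the gene of the abundant nuclear protein prothymosin alpha. PTMA was between 290 and 483 FPKM. None of the 3 MIR1244-1 loci had the hairpin sequence that RefSeq gives for this symbol, and GENCODE listed no microRNA gene there. MIR1282, second with 5518 reads and between 384 and 1064 in a library, lay on chromosome 15 from 44085857 to 44085957 in the coding exon of SERF2 on the opposite strand, and the library kit did not mark strand. SERF2 was between 129 and 167 FPKM.

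Of the genes that followed, MIR492 (442 reads) and MIR622 (260 reads) lay in processed pseudogenes of keratins and are described with the comparison of the lines, and others lay in messages of their hosts. MIR671, with 83.2 to 235 reads in a library, lay on chromosome 7 from 150935507 to 150935624 in the coding exon of CHPF2, a chondroitin synthesis gene at 59.4 ± 2.39 FPKM in A498 and 39.4 ± 2.05 FPKM in 786-O (SD, n = 4 in each line). MIR1307, with 36.5 to 119 reads, lay partly in an untranslated exon of ATP5MK, a subunit of the mitochondrial ATP synthase at 380 to 480 FPKM. MIR5047 (383 reads) and MIR3064 (223 reads) lay in introns of DDX5, an RNA helicase, and every 36-base window of each was also found in other DDX5 transcripts. MIR1184-1 and MIR1184-3, with 140 and 248 reads, lay in the coding exons of the identical F8A copies on chromosome X, which the files list at about 0, so reads could not be assigned between the microRNA genes and those copies. Over the whole set, 94 genes had a 36-base window in a spliced transcript of an overlapping gene and 22 had one in a gene elsewhere. These groups, which overlap, held 54.8% and 80.1% of the reads. The shares count all reads of a gene, also where only part of its windows matched, as for MIR1282 with 17 of 66 elsewhere. The 9 genes with every window in a gene elsewhere held 46.0% of the reads.

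Detection by at least 1 read went with the depth of the library, and detection by at least 2 reads did so less closely. The number of genes with at least 1 estimated read was 87, 71, 70 and 57 in the A498 NTC1, NTC2, siRNA1 and siRNA2 libraries, and 76, 91, 70 and 76 in the same order in 786-O. The deepest library (64700000 mapped reads) had the most and the shallowest (25100000) the fewest. In 4 libraries of nearly equal depth, between 35300000 and 36600000 mapped reads, the numbers were 71 (A498 NTC2), 70 (A498 siRNA1), 76 (786-O NTC1) and 70 (786-O siRNA1). At least 2 reads were found for 48, 39, 37 and 36 genes in A498 and for 35, 61, 35 and 37 in 786-O. At that threshold the deepest library again had the most (61), but the shallowest (36) was not the lowest. Counting any value above 0 FPKM, A498 libraries held 82.8 ± 13.6 genes and 786-O libraries 90.8 ± 9.61 (SD, n = 4 in each line). The difference of -8 was smaller than the spread between libraries, with p = 0.371 in an exact two-sided permutation test over the 8 libraries.

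**Figure D2:**
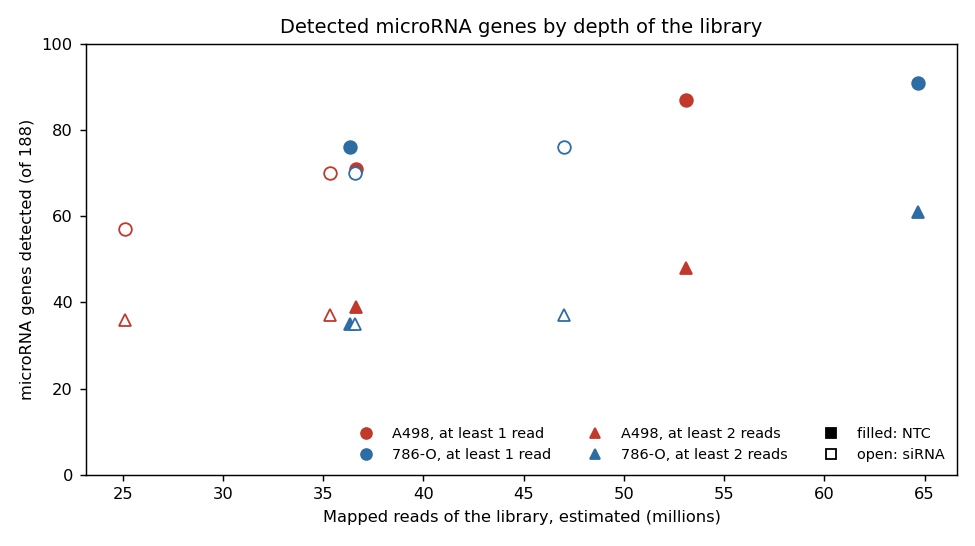
The number of the 188 genes with at least 1 read (circles) and at least 2 reads (triangles) in each library (y axis) is plotted against the estimated mapped reads (x axis, in units of 1000000). Circles go from 57 genes at 25100000 reads to 91 genes at 64700000. Those of the 4 libraries between 35300000 and 36600000 reads, from both lines, sit between 70 and 76. Triangles lie between 35 and 61 genes, with 36 in the shallowest library.

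Which genes were found also varied between libraries of 1 group. The A498 NTC libraries shared 50 genes with a read, 57.5% of the first library's and 70.4% of the second's, and the 786-O NTC libraries shared 54, or 71.1% and 59.3%. The A498 siRNA libraries shared 37, or 52.9% and 64.9%, and the 786-O siRNA libraries 45, or 64.3% and 59.2%. Between libraries of different lines, 35 to 55 genes were shared. Only 22 of the 188 had a read in all 8 libraries, whereas 67 had a read in exactly 1.

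Knockdown was compared with NTC by limma on log2(FPKM + 0.1), with Benjamini-Hochberg adjustment over the 11367 genes that averaged 1 FPKM or more. Over both lines, with the line as a covariate, only MIR4690 was called among the 188, and it was the only gene called in the whole table (0.0088% of the genes tested). The median log2 difference was -0.25 over the 188 and 0.01 over all genes tested, and an unadjusted p under 0.05 was reached by 7.45% of the 188 and 11.5% of all genes.

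MIR4690 lies on chromosome 11 from 65403781 to 65403840 (hg19), a 60-bp locus in an intron of PCNX3 on the same strand. It was listed at 67.0 and 291.5 FPKM in the A498 NTC libraries, at 98.0 and 220.2 FPKM in the 786-O NTC libraries, and at 0 in all 4 siRNA libraries. These values stand for 1, 3, 1 and 4 reads. The groups did not overlap. The adjusted p of the call was 0.000477 (limma), but the gene passed the level filter only through the NTC libraries, and the spread of the siRNA libraries was that of 4 values at 0. The evidence is thus the read numbers themselves, as for the other calls with 0 reads in a group. Pooled over libraries, 9 reads in 190700000 were found with NTC and 0 in 144000000 with the siRNAs. With a floor of 3 reads set for the siRNA group, the NTC level was 2.27-fold that floor. This ratio leaves out the counting error of the 9 reads, so it is not a lower bound. PCNX3, the host of MIR4690, was between 6.33 and 8.58 FPKM in every library. Its log2 difference after knockdown was -0.06 ± 0.04 (SE), with adjusted p = 0.592 (limma). None of the 25 windows of 36 bases of MIR4690 was found in a spliced transcript of PCNX3 or in any other gene.

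**Figure D3:**
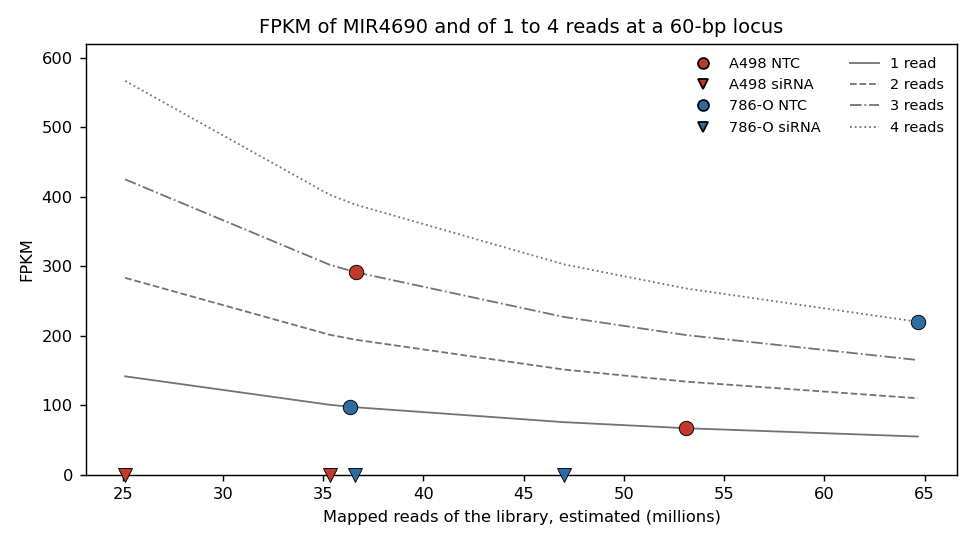
FPKM of MIR4690 in each library (y axis) is plotted against estimated mapped reads (x axis, in units of 1000000), with lines for the FPKM that 1, 2, 3 and 4 reads give at a 60-bp locus. The 4 NTC points lie on the lines for 1, 3, 1 and 4 reads, the 291.5 FPKM of the second A498 NTC library being 3 reads and the 220.2 FPKM of the second 786-O NTC library 4 reads, and the 4 siRNA points lie at 0.

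In A498 alone, 8 of the 188 genes (4.26%) were called, against 0.176% of all genes tested. In 786-O alone, 10 of the 188 (5.32%) were called, against 0.141% of all genes tested. Of all calls, 19 of 20 in A498 and 16 of 16 in 786-O were genes under 200 bp, and no microRNA gene was called in both lines. The 18 genes with a call were made up in A498 of 3 higher and 5 lower (background 0.0704% and 0.106% of all genes tested) and in 786-O of 3 higher and 7 lower (background 0.0528% and 0.088%). In A498, 7 of the 8 had at most 3 reads in the 4 libraries compared and no more than 2 in any library. In 786-O this held for 8 of the 10. For reads of this number, both groups were at or under a floor of 3 reads, so no fold is given.

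The calls lower after knockdown in A498 were MIR3620, MIR4746, MIR4784 and MIR555, with about 1 read in each NTC library and 0 in both siRNA libraries, and MIR1224 with 2 reads and 1 read against 0. The calls higher were MIR877 and MIR5193, with 0 in both NTC libraries and 1 read in each siRNA library, and MIR4315-1. The last had 3 and 2 reads with NTC against 6 and 5 with the siRNAs, a log2 difference of 1.73 ± 0.09 (SE, adjusted p = 0.0498, limma), and all 38 of its 36-base windows were found without a mismatch in PLEKHM1.

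In 786-O, 4 further genes had 1 to 2 reads per NTC library and 0 in the siRNA libraries, namely MIR93, MIR4737, MIR564 and MIR24-1, and MIR600 was split between 0.82 and 1.64 reads. MIR3189 and MIR4715 had 1 read in each siRNA library and 0 with NTC, and MIR664B 0.64 and 0.55 of a read. MIR4690 had 1 and 4 reads against 0. MIR4647, in an untranslated exon of SLC35B2, had 9.44 and 13.6 reads with NTC against values at or near 0 in both siRNA libraries (adjusted p = 0.00525, limma), while it was near 0 in 3 of the A498 libraries and at 1.39 reads in A498 siRNA2. Its 4 values in 786-O were all marked LOWDATA, and SLC35B2 itself, a transporter of the sulfate donor into the Golgi, was at 46.3 to 49.6 FPKM in 786-O. Of 16 hosts of called genes that passed the level filter, 0 were called in A498, 786-O or both lines by limma, with lowest adjusted p of 0.782, 0.910 and 0.392. The background was 0.176%, 0.141% and 0.0088% of all genes tested, so 0 of 16 is near it. An unadjusted p under 0.05 was reached by 2, 0 and 3 of the 16, beside 4.30%, 4.21% and 11.5% of all genes tested.

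**Figure D4:**
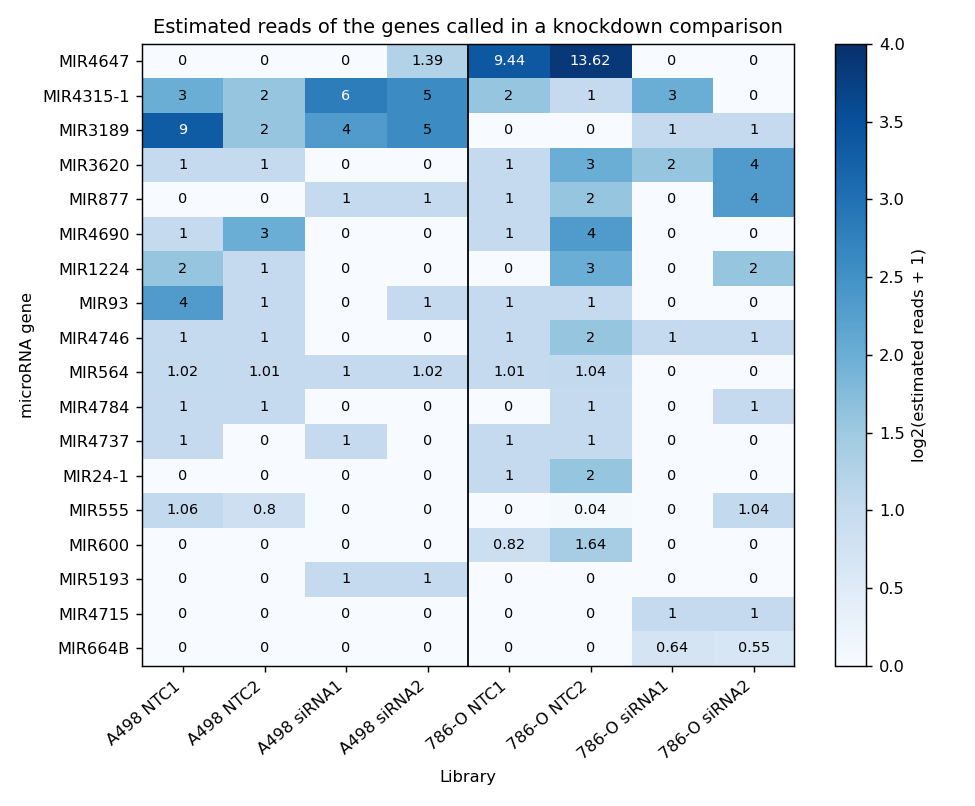
Estimated reads in each library (columns, A498 left of the line and 786-O right) are printed for the 18 genes called in at least 1 knockdown comparison (rows), with darker blue for more reads on a log2 scale. Most cells hold 0, 1 or 2 reads, and the highest cell is 13.6 reads of MIR4647 in the second 786-O NTC library.

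MIR4746 lies on chromosome 19 from 4445975 to 4446045, opposite to UBXN6, in an intron by the basic transcript set, although all 36 of its 36-base windows were found in other UBXN6 transcripts. Its FPKM was 31.0 and 45.0 in the A498 NTC libraries, 0 in both A498 siRNA libraries, 45.4 and 51.0 in the 786-O NTC libraries and 45.1 and 35.0 in the 786-O siRNA libraries. Those values were 1, 1, 0, 0, 1, 2, 1 and 1 reads. The 45.4 FPKM of the first 786-O NTC library and the 31.0 FPKM of the first A498 NTC library are each 1 read, at 36300000 and 53100000 mapped reads. The gene was called in A498 (adjusted p = 0.00824, limma), and UBXN6, a cofactor of the ATPase VCP, was at 31.2 to 34.9 FPKM in all A498 libraries.

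MIR24-1 lies on chromosome 9 from 97848303 to 97848370 in an intron of AOPEP, an aminopeptidase gene, on the same strand, although its 33 windows of 36 bases were found in other AOPEP transcripts. It was at 54.8 and 61.6 FPKM in the 786-O NTC libraries and at 0 in the other 6, which is 1 read, 2 reads and none. Its call in 786-O (adjusted p = 0.00138, limma) rests on those 3 reads. MIR24-2, which gives the same 3p strand from a noncoding exon of MIR23AHG on chromosome 19, had 1 read in the A498 siRNA2 library (58.3 FPKM) and 0 elsewhere. AOPEP was between 10.9 and 13.4 FPKM in every library.

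Between the lines, 27 of the 188 genes (14.4%) were called, 10 higher and 17 lower in A498, against 80.5% of all genes tested (39.1% higher and 41.4% lower). In these bulk libraries, fewer cells with a transcript and less of it per cell cannot be told apart. Of the 27, 10 had at most 3 reads in the 8 libraries and 9 had at least 20. The median log2 difference, A498 minus 786-O, was -0.06 over the 188 and -0.02 over all genes, but the median size of the difference regardless of sign was 1.98 and 0.51.

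MIR492, on chromosome 12 from 95228174 to 95228289, was the only gene of the 188 above 0 in every library of 1 line and at 0 in every library of the other. It had 114, 145, 87 and 96 reads in the 786-O NTC1, NTC2, siRNA1 and siRNA2 libraries (750.7, 536.2, 568.8 and 488.1 FPKM) and 0 in all 4 A498 libraries. It was at 2.45 ± 0.480 reads per 1000000 mapped reads (RPM) in 786-O (SD, n = 4). With a floor of 3 reads set for the A498 group, the pooled 786-O level was 120-fold that floor, counting error left out. The adjusted p was 4.18e-10 (limma), but the gene passed the level filter only through 786-O. The spread of the A498 libraries was that of 4 values at 0, so the evidence is the read numbers themselves. The locus overlaps KRT19P2, a processed copy of the keratin gene KRT19, and 62 of its 81 windows of 36 bases matched KRT19 with at most 2 mismatches, 6 of them exactly. KRT19 was at 82.7 ± 5.91 FPKM in 786-O and 13.3 ± 0.894 FPKM in A498 (SD, n = 4), a log2 difference of -2.62 ± 0.05 (SE, adjusted p = 5.81e-09, limma). KRT19P2 was at 0.591 to 0.954 FPKM in 786-O and at 0 in 3 of the A498 libraries.

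MIR622, on chromosome 13 from 90883436 to 90883531 within KRT18P27, a processed copy of the keratin gene KRT18, went the other way. It had 43, 31, 44 and 28 reads in the A498 libraries against 26, 35, 25 and 28 in 786-O, which is 1.00 ± 0.211 and 0.634 ± 0.0802 RPM (SD, n = 4). Read numbers overlapped between the lines but the depth-scaled levels did not. The log2 difference was 0.65 ± 0.13 (SE, adjusted p = 0.00191, limma). All 61 of its windows matched KRT18, a keratin of simple epithelia, with at most 2 mismatches, 11 of them exactly. KRT18 was at 322 ± 11.9 FPKM in A498 and 218 ± 2.14 in 786-O (SD, n = 4), a log2 difference of 0.56 ± 0.03 (SE).

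MIR3189 lies in an intron of GDF15, a stress-induced cytokine. It had 9, 2, 4 and 5 reads in A498 and 0, 0, 1 and 1 in 786-O, without overlap (log2 difference 6.55 ± 1.49, SE, adjusted p = 0.00424, limma, dependent on the 0.1 FPKM added). GDF15 was at 783 ± 146 FPKM in A498 and 16.5 ± 2.09 in 786-O (SD, n = 4), and none of the 38 windows of MIR3189 was found in its spliced transcripts. MIR614, in an untranslated exon of GPRC5A, an orphan receptor induced by retinoic acid, had 7, 6, 9 and 5 reads in A498 and 0, 2, 1 and 1 in 786-O, 8.30-fold higher in A498 when pooled per mapped read (adjusted p = 0.0225, limma). GPRC5A was at 33.9 ± 2.11 FPKM in A498 and 3.81 ± 0.275 in 786-O (SD, n = 4).

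**Figure D5:**
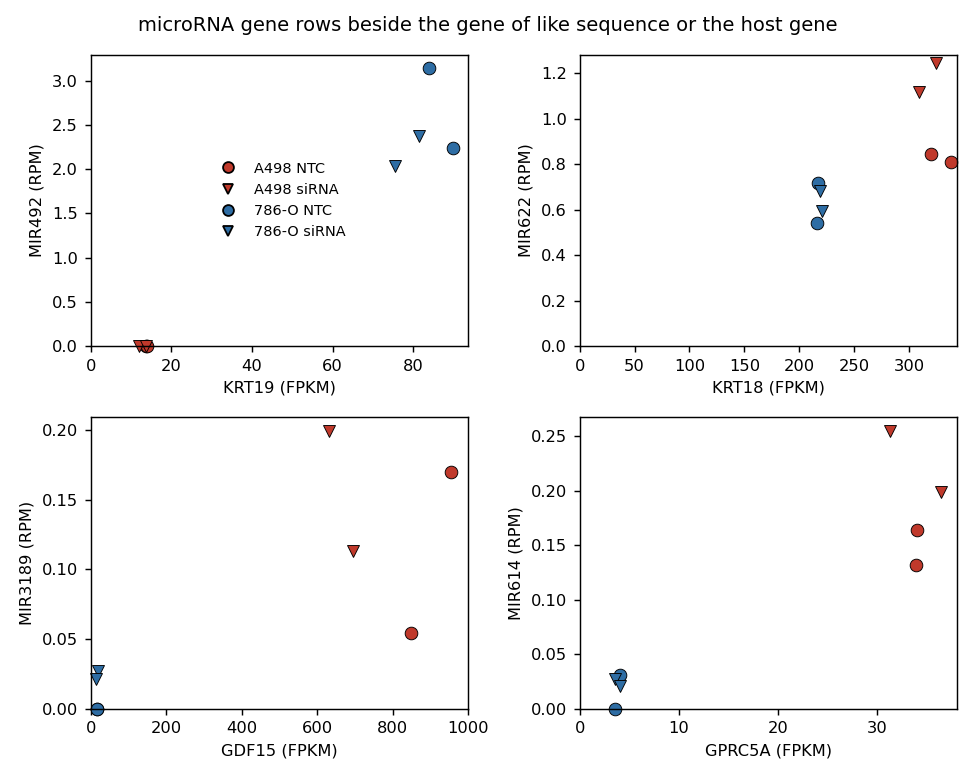
RPM of 4 microRNA genes (y axes) are plotted against the FPKM of the gene of similar sequence or the host (x axes) in the 8 libraries, circles for NTC and triangles for siRNA, red for A498 and blue for 786-O. MIR492 is at 0 in the 4 A498 libraries, where KRT19 averages 13.3 FPKM, and MIR622, MIR3189 and MIR614 separate the lines in the same direction as KRT18, GDF15 and GPRC5A.

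MIR3918, opposite to an untranslated exon of SYTL3, a vesicle-trafficking gene, had 2.27 to 8.69 reads in the A498 libraries and 18.0 to 69.1 in the 786-O libraries (log2 difference -2.32 ± 0.29, SE, adjusted p = 0.000143, limma), 5.17-fold higher in 786-O per mapped read. SYTL3 was at 4.60 ± 0.510 FPKM in A498 and 14.7 ± 1.21 in 786-O (SD, n = 4). MIR3198-2, in an untranslated exon of the heterochromatin gene CBX5, had 14.4 to 27.7 reads in A498 and 20.2 to 77.2 in 786-O (log2 difference -0.82 ± 0.22, SE, adjusted p = 0.00895, limma). MIR939, partly in an exon of CPSF1, which acts in 3' end cleavage of messages, had 3, 1, 1 and 2 reads in A498 and 6, 7, 4 and 9 in 786-O (log2 difference -1.68 ± 0.39, SE, adjusted p = 0.00447, limma).

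MIR147B lies in an untranslated exon of C15orf48, a mitochondrial respiratory gene that the files list under a newer symbol. It was at or near 0 in 3 A498 libraries but had 18.3 reads in A498 siRNA1, and 17.4, 46.3, 16.4 and 9.0 reads in 786-O, so the lines overlapped although the difference was called (adjusted p = 0.0160, limma). Every value was LOWDATA. The host was at 67.5 ± 4.83 FPKM in A498, with all 4 libraries between 62.2 and 72.4, and at 187 ± 13.3 FPKM in 786-O (SD, n = 4).

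The other calls between the lines rested on 1.18 to 28 reads over all libraries. MIR29C, of a family that targets collagen messages, had 1, 2 and 2 reads in 3 of the 786-O libraries and 0 in A498, MIR330 had 1 read in 3 of the A498 libraries and 0 in 786-O, and MIR4750 had 2, 1 and 1 reads in 3 of the 786-O libraries and 0 in A498. MIR3198-1 (28 reads) and MIR4722, MIR1914 and MIR570 (7 to 10 reads) were found in both lines.

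The difference of the knockdown effect between the lines was called for 12 of the 188 genes (6.38%), 6 in each direction. The background was 0.141% of all genes tested (0.0704% in each direction). Of the 16 calls among all genes tested, 15 were genes under 200 bp, and with only such genes fitted 0 of the 188 were called. In all 8 libraries together, 8 of the 12 had at most 3 reads. The 12 included MIR4746, with 2 NTC reads against 0 in A498 and 3 against 2 in 786-O (adjusted p = 0.000471, limma). They also included MIR24-1, with 3 reads against 0 in 786-O and none in A498 (adjusted p = 0.000874, limma).

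Well-known microRNA families were mostly at 0. All 6 genes of the MIR17-92 cluster, a set of growth-promoting microRNAs cut from 1 transcript, were listed at 0 in every library, while their host transcript MIR17HG averaged 1.41 FPKM. Of 12 let-7 genes, 8 were at 0 and MIRLET7A3, MIRLET7B, MIRLET7D and MIRLET7I had 0.88 to 2.21 reads each. Of the 5 genes of the MIR200 family, which marks epithelial cells, 3 were at 0, MIR200A had 2 reads and MIR429 had 16 reads spread over 5 libraries. Of the 6 genes of the MIR23-27-24 clusters, only MIR24-1 and MIR24-2 had reads. Of the members in these 3 families and clusters with reads, only MIR24-1 was called in any of the 5 comparisons.

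Among 12 genes in the files that are known from kidney cancer, hypoxia or the p53 response, 7 were at 0. MIR21, a microRNA often raised in tumors that lies in an untranslated exon of VMP1, had 1 read in A498 NTC2 and 0, 1, 2 and 1 reads in 786-O, where VMP1 was at 37.2 to 43.7 FPKM. MIR221 had 7 reads and its seed partner MIR222 had 2, in 4 and 2 libraries. MIR34B, a p53 target, had 1 read, and MIR155 had 0.16 of a read although its host transcript MIR155HG averaged 4.41 FPKM. None of the 5 was called in the 5 comparisons.

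The MCM7 intron carries MIR25, MIR93 and MIR106B close together on chromosome 7. MIR25 had 9, 2, 5, 5, 9, 21, 2 and 11 reads in the order A498 NTC1, NTC2, siRNA1, siRNA2 and then 786-O, and was found in all 8 libraries. MIR93 had 8 reads and MIR106B 4, and this pair shares its seed, as the mature strands above show. MCM7, a subunit of the replicative helicase, was at 111 to 188 FPKM.

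Proteins that make and use microRNAs were followed through their messages only, and no protein was measured. Of 14 machinery genes in the list, 11 passed the level filter, and in the comparison of knockdown over both lines 0 of 11 were called by limma and 2 had an unadjusted p under 0.05. Between the lines, 9 were lower and 1 higher in A498, and 10 of 11 called is near the background of 80.5% of all genes tested (41.4% lower and 39.1% higher). They had a median log2 difference of -0.57 beside -0.02 over all genes tested. The log2 difference was -0.91 ± 0.04 for DROSHA, -0.83 ± 0.03 for XPO5 and -0.58 ± 0.10 for DICER1 (SE), and it was 0.20 ± 0.07 for TNRC6A, which links Argonaute to message decay.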

How the data were processed

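Total RNA of A498 and 786-O cells was made into TruSeq libraries and read as single-end 36-base reads by the authors, who isolated it 24 hours after transfection per the study's methods (the labels give 16 hours of siRNA). Per the labels, TopHat2 2.0.0 and Cufflinks 2.0.2 were used with hg19. The deposited tables give, per library, the FPKM of each annotated locus with its upper and lower bound and a status, and they hold no counts.

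FPKM of the 43150 RefSeq entries was joined by identifier and locus and named through a RefSeq gene table (96.6% matched, GRCh38.p14, names only). Reads were recovered as FPKM divided by the FPKM of 1 read at that span and depth, estimated from 1359 values of short entries whose upper bound gave a whole read number (99.8% within 1%). They are estimates, and their counts cover counting error only. Mapped reads were scaled with a fragment length of 200 ± 80 bases, which is the default of Cufflinks and was assumed. At least 0.5 of a read counted as detected. Positions came from GENCODE on GRCh37. All 36-base windows of a locus were aligned to its transcripts with bwa 0.7.19 (at most 2 mismatches). limma 3.58.1 in R 4.3.3 was fitted with a variance trend on log2(FPKM + 0.1) over 11367 genes. It was run on simulated data of continuous values with a capped spread, which does not test calls that rest on a few reads. No replicate block was used.

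Named are MIR4690, MIR4746 and MIR24-1, the genes called, the 15 highest by FPKM, the 10 highest by reads, up to 10 found in all libraries, those found in 1 line only, those at the threshold and the members of the lists; where many met the rule they are given by number. The genes and lists were chosen with earlier results of these data known. Sequences from chromosome 8 are not shown. Alternatives changed the pseudocount, the filter, the scaling, the variance trend, the summing per symbol, the genes fitted, the block and the libraries.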

Additional observations from a re-analysis of the deposited data

Results flagged for a closer look

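The knockdown effect differed between the lines for 12 genes by the interaction term of limma. On the log2(FPKM + 0.1) scale, and dependent on the 0.1 FPKM added, the effect in A498 minus that in 786-O was -7.83 for MIR3189, -8.84 for MIR3620, -8.27 for MIR4746, -8.87 for MIR664B, -8.07 for MIR193B and -7.99 for MIR4715. It was 9.18 for MIR24-1, 8.58 for MIR3132, 7.38 for MIR564, 7.91 for MIR4645, 6.76 for MIR600 and 6.68 for MIR5193. Of the 12, 8 had at most 3 reads in all 8 libraries, and MIR3189 had the most, with 22 reads.

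The second 786-O NTC library, the deepest at 64700000 mapped reads, had 105 of the 188 genes above 0 FPKM against 85, 85 and 88 in the other 786-O libraries, a gap that set it apart from the rest of the line. It was 1 of 22 sets of 4 libraries examined, and chance marks about 1 in 20.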

How the results depend on the processing

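The single call over both lines, MIR4690, was kept under all 16 alternatives, with adjusted p from 4.95e-05 to 0.0137 (limma). Every refit used the same values at 0 in the siRNA libraries, so keeping the call adds no separate evidence. The count of calls was 1 to 2 with a library left out (2 without A498 siRNA2). Of the 27 calls between the lines, MIR492 and MIR3918 were kept under all 17 alternatives. For MIR492 the refits likewise used the same A498 values at 0. No call of 58 changed direction in 883 refits, and 277 refits lost the call. Many of these calls set a few reads against 0 in a whole group, which leaves little room for a change of direction. The calls in A498 went from 8 to 0 with no filter on low values (21 with an unadjusted p under 0.05), to 0 with only the 394 genes under 200 bp (5) and to 0 with a replicate block (25). In 786-O, 10 calls went to 6 with a pseudocount of 1, to 1 with no filter, to 0 with only genes under 200 bp (5 with an unadjusted p under 0.05) and to 2 with the replicate block. Calls between the lines went from 27 to 13 with no filter and to 2 with only genes under 200 bp, and were 18 under the replicate block. The interaction went from 12 to 4 with a pseudocount of 0.01, to 0 with only genes under 200 bp (19 with an unadjusted p under 0.05) and to 6 with the replicate block. In the labels NTC1 and siRNA1 share only a number, and whether they were processed together is not stated. Their deviations from the group means correlated at -0.00479 (A498) and 0.00636 (786-O) over all genes tested. Over genes above 200 bp the correlations were 0.171 and 0.0227, and these values do not settle whether the libraries were paired. Leaving out each library in turn gave 26 to 37 calls in A498 and 19 to 25 in 786-O, over 1.5 times the main count for every library of the line, and it gave 21 to 29 between the lines and 17 to 25 for the interaction. The lone library of an arm was then assumed to vary like the other group, and the calls had 5 to 8 genes in common with those of all libraries in A498 and 6 in 786-O. The cause was not tested. The detection difference stayed between -13.4 and -2.42 with a library left out, and was -6 at 1 FPKM, -2 at 2 reads and, chosen after seeing the data, -7 at 1 read, all with exact permutation p from 0.171 to 0.971. The number of genes kept was 167 under 100 bp and 117 at a mean of 5 FPKM. With 0 reads, a library could not show a gene of 80 bp below 46.4 to 119.5 FPKM, the value of 3 reads.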
